A study of Mus musculus with 12 samples.

Results

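A set of 10 genes of the interferon-induced antiviral response was followed in CT26 cells, a mouse colon carcinoma line of BALB/c origin, under CX3CL1 and IFN-γ. They were RSAD2, CMPK2, MX1, MX2, BST2, IFI44, IFI44L, IFI35, IFI27 and XAF1, taken by symbol. The genes were chosen with earlier results of these data known, so counts and medians of the 10 are descriptions of a chosen set. All 10 were present among the 23636 symbols of the expression table, and all 10 were among the 11878 whose mean level over the 12 libraries was 0.2 TPM or more. TPM is a transcript level scaled to gene length and to a total of 1000000 in each library. Cells of 1 line were left without treatment, given CX3CL1 at 2 µg/ml, given IFN-γ at 100 ng/ml, or given both at those doses (CX3CL1+IFN-γ), and mRNA was sequenced after 8 hours. The sample labels and the paper's figure legend name IFN-γ without TNF-α. The paper's text, however, describes cells given IFN-γ and TNF-α before CX3CL1. The order of addition, the time with IFN-γ and the absence of TNF-α are therefore uncertain. Each of the 4 groups had 3 biological replicates. Whether these came from separate cultures was not stated, so p-values measure the spread between these libraries only.

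Interferons act through receptors that activate JAK kinases and STAT transcription factors. Signalling from type I and type III interferons reaches genes through the interferon-stimulated response element (ISRE), whereas that from IFN-γ acts mainly through the gamma-activated site (GAS). The effector genes that result act on different steps of a viral life cycle. Viperin, encoded by RSAD2, converts CTP into a chain-terminating nucleotide, and CMPK2 is a mitochondrial kinase that phosphorylates pyrimidine nucleotides. The Mx proteins are dynamin-like GTPases that trap viral nucleocapsids. Tetherin, encoded by BST2, holds budding virions at the cell surface. XAF1 binds the caspase inhibitor XIAP and opposes it, IFI35 forms a complex with NMI, and IFI27 belongs to a family of small interferon-inducible membrane proteins. CX3CL1 is a chemokine that signals through CX3CR1, a receptor coupled to G proteins.

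Several of the genes lie beside each other in the mouse genome (GENCODE vM21, GRCm38, the assembly also called mm10). RSAD2 (chr12:26442746-26456452, minus strand) and CMPK2 (chr12:26469204-26479837, plus strand) start back to back with 12751 bases and no other gene between them. IFI44 (chr3:151730922-151749960) and IFI44L (chr3:151758737-151762892), both on the minus strand, are 8776 bases apart. MX1 (chr16:97447035-97462907, minus strand) and MX2 (chr16:97535308-97560900, plus strand) are 72400 bases apart with 1 protein-coding gene between them. Most inbred mouse strains carry defective Mx alleles, and RefSeq lists both Mx genes of the reference strain as transcribed pseudogenes. GENCODE differs, with MX1 as protein-coding and MX2 as a polymorphic pseudogene. As for all genes here, the Mx values below are transcript levels and say nothing of protein. BST2 (chr8:71534255-71537456, minus strand), IFI35 (chr11:101448407-101458698, plus strand), XAF1 (chr11:72301629-72313733, plus strand) and IFI27 (chr12:103434211-103440239, plus strand) complete the set. An antisense gene covers 815 bases of IFI35, and whether reads were counted by strand was not stated.

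Promoters from RefSeq (GRCm38.p6, 250 bases before to 50 after the start site) matched 7 of the 10 genes, all but MX1, MX2 and IFI27. They were searched on both strands for the ISRE as GAAA and GAAA with NN between them, the GAS as TTC and GAA with NNN between them, and the κB site, bound by NF-κB, as GGGA and CC with NNNN between them, where N is any base. The ISRE letters were in 2 of the 7 (RSAD2 and BST2) and in 3.44% of 32851 promoters of the same length. The GAS letters were in 2 (BST2 and IFI35) against 8.3%, and the κB letters in 3 (RSAD2, IFI44L and XAF1) against 20.7%. CMPK2 and IFI44, which also responded, held none of these letters. The stretch from 150 to 51 bases before the start site is shown for 3 genes that responded at different sizes and whose matches differ in kind, with the matches in capitals. RSAD2 (chr12:26456503-26456602, minus strand) holds an ISRE and then a κB match, both read on the opposite strand, BST2 (chr8:71537523-71537622, minus strand) holds 1 GAS and 2 ISRE matches that overlap in a single run, and IFI44L (chr3:151762942-151763041, minus strand) holds a κB match alone.
RSAD2: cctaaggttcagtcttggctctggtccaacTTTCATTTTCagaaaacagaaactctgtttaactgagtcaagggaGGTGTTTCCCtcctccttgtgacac
BST2: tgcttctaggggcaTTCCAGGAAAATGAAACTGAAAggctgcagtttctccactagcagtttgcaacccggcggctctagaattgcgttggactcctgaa
IFI44L: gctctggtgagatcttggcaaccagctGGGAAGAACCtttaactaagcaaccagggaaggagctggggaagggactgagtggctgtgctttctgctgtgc
A match of these letters is a description of the sequence and not a binding site.

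Viperin and its neighbour CMPK2 moved through the 4 treatments in the same order. In cells without treatment RSAD2 stood at 4.62, 2.18 and 4.25 TPM (replicates 1, 2 and 3), and with CX3CL1 at 19.0, 19.4 and 33.6 TPM. With IFN-γ it reached 56.4, 65.2 and 179 TPM, and with CX3CL1+IFN-γ 85.6, 108 and 248 TPM. Neither treatment alone overlapped the untreated cells, and replicate 3 was the highest library in each treated group. Compared with no treatment, the mean TPM of RSAD2 was 6.51-fold higher with CX3CL1, 27.2-fold with IFN-γ and 40-fold with both. CMPK2 stood at 6.87, 3.98 and 6.93 TPM without treatment and at 36.5, 33.0 and 53.4 TPM with CX3CL1. Levels were 58.1, 80.2 and 143 TPM with IFN-γ and 80.4, 112 and 182 TPM with both. All CX3CL1 libraries of CMPK2 lay above the untreated and below the IFN-γ libraries, although its highest CX3CL1 library and its lowest IFN-γ library nearly met.

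The Mx transcripts started low. MX1 was at 0.547, 0.218 and 0.530 TPM without treatment and at 2.21, 2.13 and 5.80 TPM with CX3CL1. Under IFN-γ it was at 15.1, 27.5 and 47.6 TPM, and under both at 18.6, 41.5 and 70.7 TPM. Thus the mean TPM of MX1 was 69.6-fold higher with IFN-γ and 101-fold higher with both than without treatment, from a level below 1 TPM in every untreated library. MX2 was at 3.11, 2.00 and 2.78 TPM without treatment and at 12.4, 17.02 and 25.6 TPM with CX3CL1. Levels were 36.4, 74.6 and 75.4 TPM with IFN-γ and 46.5, 92.6 and 96.3 TPM with both. For both genes replicate 1 was the lowest library in the IFN-γ and the CX3CL1+IFN-γ group, and those groups overlapped each other.

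BST2 was the most abundant of the 10 in all 12 libraries. It stood at 778, 318 and 366 TPM without treatment and at 1321, 507 and 1119 TPM with CX3CL1. Levels were 2094, 2013 and 2346 TPM with IFN-γ and 1356, 1959 and 2290.0 TPM with both. CX3CL1 replicate 2 lay below untreated replicate 1, so these groups overlapped, whereas all IFN-γ libraries lay above all CX3CL1 libraries. By its mean TPM, BST2 already ranked at percentile 97.5 of the tested genes in untreated cells and reached 99.5 with IFN-γ. BST2 made up 47.6 to 73.8% of the summed TPM of the 10 genes. The sum was 0.0514 to 0.105% of all TPM without treatment, 0.106 to 0.187% with CX3CL1, 0.303 to 0.384% with IFN-γ and 0.245 to 0.411% with both.

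IFI44 and IFI44L, related genes in 1 cluster, differed widely in level. IFI44 was at 120.0, 33.3 and 58.5 TPM without treatment and at 240.3, 304 and 289 TPM with CX3CL1. Levels were 477, 479.8 and 649 TPM with IFN-γ and 576, 649 and 765 TPM with both. The untreated libraries of IFI44 were spread far apart, with a coefficient of variation of 63.1%, against 12% with CX3CL1, yet they did not overlap any treated group. IFI44L was at 1.94, 0.554 and 0.812 TPM without treatment and at 7.59, 4.51 and 15.2 TPM with CX3CL1. IFN-γ brought it to 67.9, 62.7 and 131 TPM and both treatments to 59.9, 86.6 and 179 TPM. Its mean TPM was 8.26-fold higher with CX3CL1 and 79.3-fold higher with IFN-γ than without treatment, against 3.93-fold and 7.58-fold for IFI44.

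IFI35 and XAF1, which bind other cellular proteins, had coefficients of variation of at most 24.6% within any group. IFI35 was at 33.9, 27.2 and 39.3 TPM without treatment and at 71.9, 62.1 and 98.9 TPM with CX3CL1. Levels were 109.5, 103 and 135 TPM with IFN-γ and 126, 115 and 141 TPM with both. The groups followed each other without overlap up to IFN-γ, with the highest CX3CL1 library just below the lowest IFN-γ library. XAF1 was at 15.5, 9.59 and 12.6 TPM without treatment and at 41.3, 35.6 and 52.7 TPM with CX3CL1. Levels were 80.8, 80.7 and 101 TPM with IFN-γ and 82.5, 87.0 and 111 TPM with both. All treated libraries of XAF1 lay above the untreated ones, and the groups with IFN-γ overlapped each other.

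IFI27 moved the other way. It was at 90.1, 117 and 97.2 TPM without treatment and at 115, 80.3 and 105 TPM with CX3CL1. With IFN-γ it was at 33.0, 40.4 and 28.4 TPM, and with both at 21.6, 39.4 and 28.8 TPM. Untreated and CX3CL1 libraries overlapped, and every library with IFN-γ lay below every library without it. The mean TPM with IFN-γ was 0.335 times the untreated mean. In these bulk cultures, fewer cells that express a gene and less RNA per cell cannot be told apart.

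**Figure D1:**
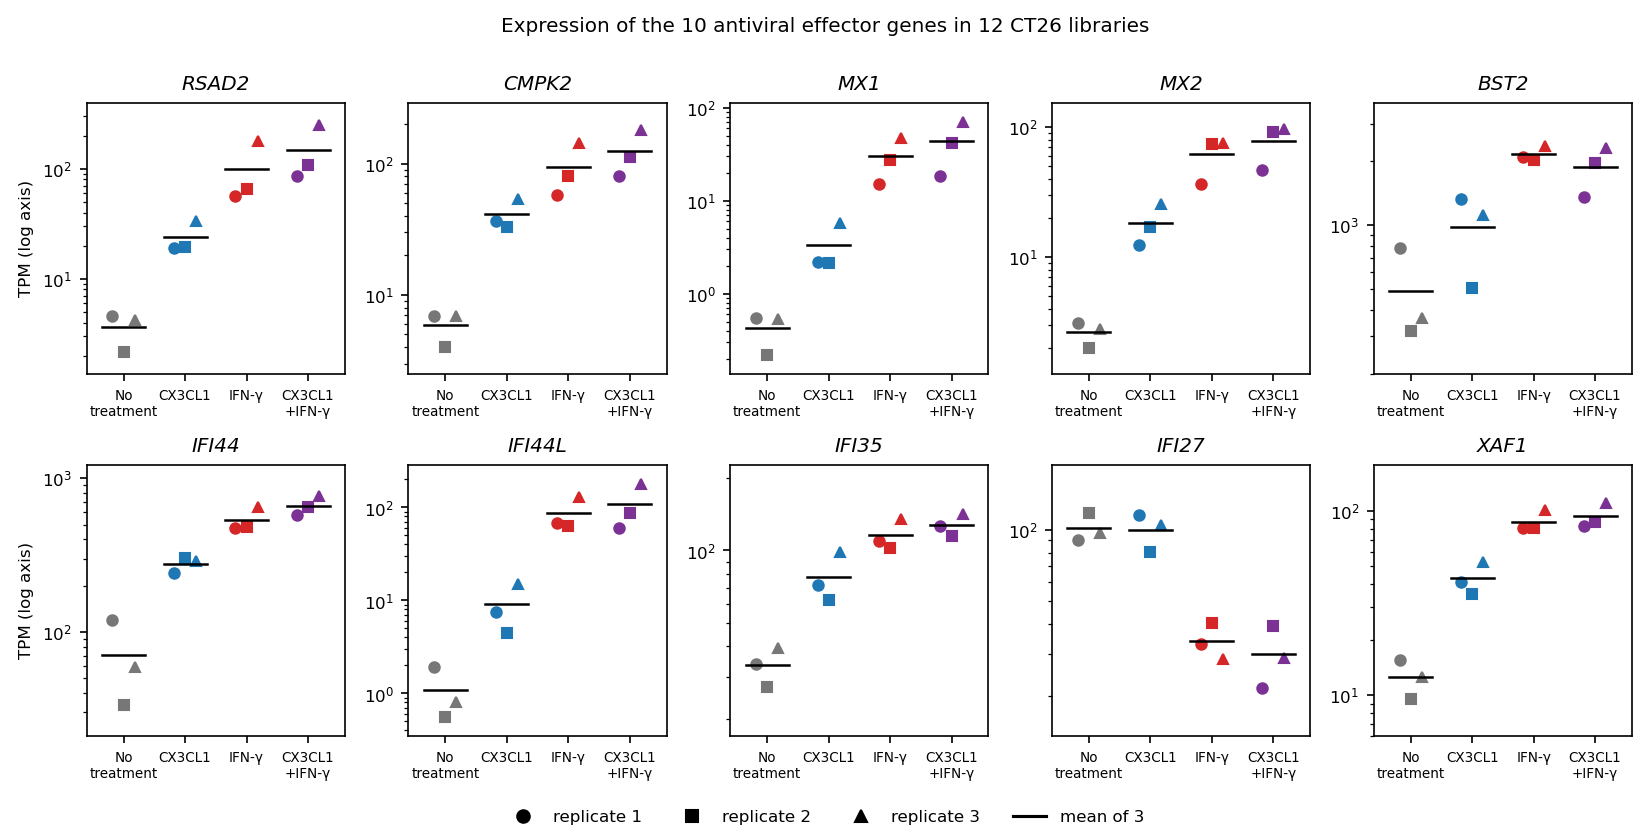
TPM of each of the 10 genes on a log axis, by treatment. Each point is 1 library, its shape gives the replicate number, and the line is the mean of 3. In 9 genes the IFN-γ libraries lie above all CX3CL1 libraries, and in IFI27 they lie below them.

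By mean TPM, 8 of the 10 genes had the order no treatment, CX3CL1, IFN-γ, CX3CL1+IFN-γ from lowest to highest. In BST2 the last 2 groups changed places, and IFI27 had the full order turned around. The untreated and CX3CL1 means of IFI27 were nearly equal, at 101.4 and 100 TPM, and their libraries overlapped. The IFN-γ libraries did not overlap the CX3CL1 libraries in any of the 10, with 9 genes above (18.3% of all tested genes) and IFI27 below (7.74%). This pair of groups was compared by the range of its libraries only. The last neighbours in the order, IFN-γ and CX3CL1+IFN-γ, overlapped in all 10.

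Within a group, the genes tended to rank the libraries alike. Untreated replicate 2 was the lowest of its group in 9 of the 10 genes and the highest in IFI27. IFN-γ replicate 3 was the highest in the same 9 and the lowest in IFI27. CX3CL1+IFN-γ replicate 3 was the highest in 9 genes and replicate 1 the lowest in 9. Of the CX3CL1 libraries, replicate 3 was the highest in 7 and replicate 2 the lowest in 7. CX3CL1 replicate 2 was also the least like its group over all genes, with Pearson correlations of log2(TPM + 1) of 0.984 and 0.987 to the others. Replicates of the same group correlated at 0.984 to 0.996 throughout, and no pair was identical.

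**Figure D2:**
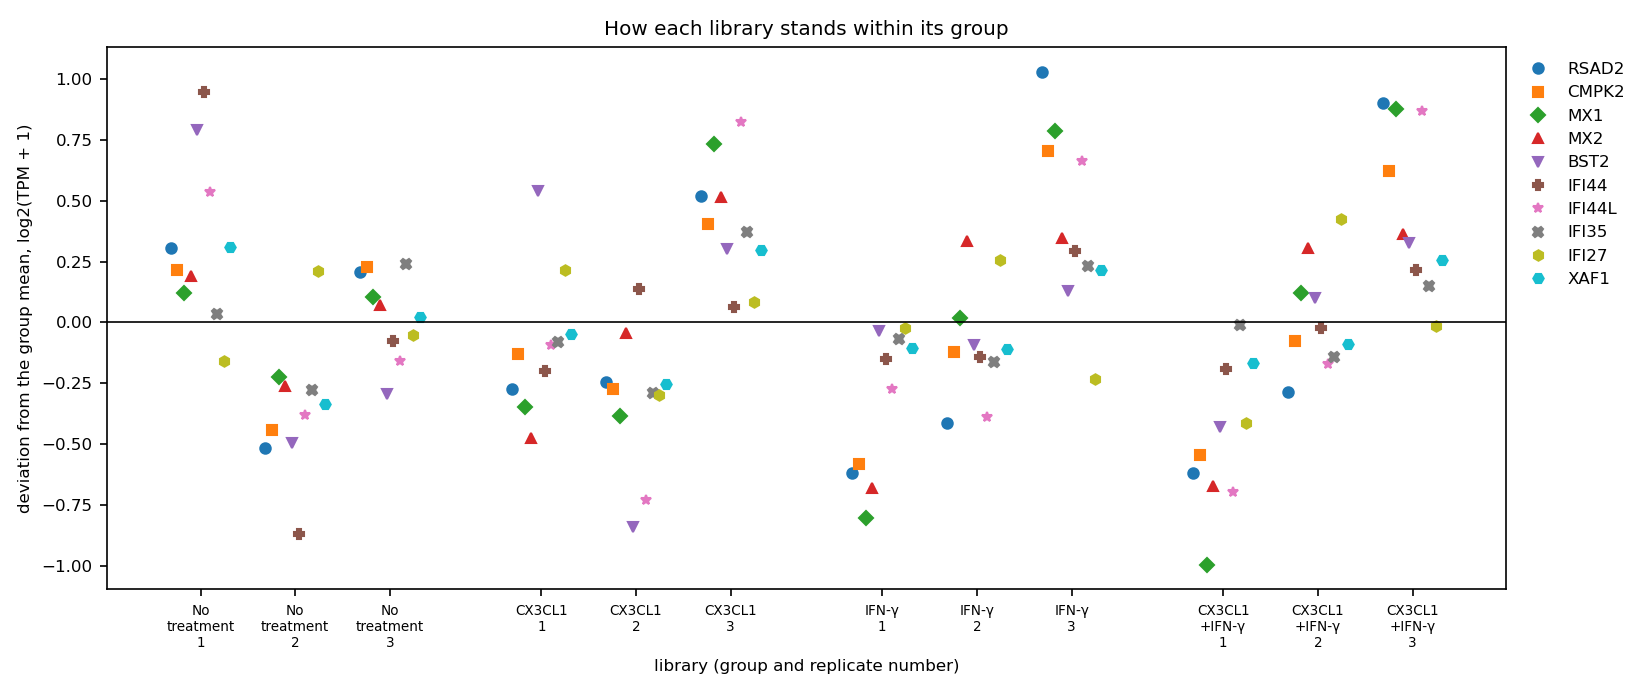
Deviation of each library from the mean of its group, on the log2(TPM + 1) scale, with 1 point for each of the 10 genes. The median over the 10 genes runs from -0.49 in CX3CL1+IFN-γ replicate 1 to 0.39 in CX3CL1 replicate 3, and is near 0 in untreated replicate 3 (0.05) and CX3CL1+IFN-γ replicate 2 (-0.05).

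The labelled cell type was read from markers. Of 13 markers of leukocytes, myeloid cells, B and T cells, plasmacytoid dendritic cells and endothelium, 11 were below 1 TPM in every library. CD3E was at 0 in all 12. The exceptions were the myeloid markers CD68, at 7.95 to 27 TPM, and LYZ2, at 0.0968 to 1.86 TPM. The sum of the 13 was 9.49 to 17.9 TPM without treatment, 8.72 to 22.3 TPM with CX3CL1, 9.83 to 20.4 TPM with IFN-γ and 10.4 to 27.6 TPM with both. Of 7 epithelial markers, KRT18 made up nearly all of a sum of 18.5 to 53.8 TPM and the others were below 1 TPM in every library, and the mesenchymal markers VIM, FN1 and CDH2 summed to at least 2.07e+03 TPM in each library. KRT18 was lower with IFN-γ than without treatment (-0.68, limma adjusted p = 0.0346). The mesenchymal sum was 2.75e+03 to 3.78e+03 TPM with IFN-γ and 3.96e+03 to 5.11e+03 TPM without treatment. The part of these shifts in the values of the 10 genes was not tested.

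CX3CL1 alone was compared with no treatment to read the response of the tumour cells to the added protein without IFN-γ. No group had a control protein or a block of CX3CR1, so the part of the receptor was not tested. Of the 10 genes, 7 rose, by 1.18 to 2.60 on the log2(TPM + 1) scale, and none fell. On this scale CMPK2 had the largest log2 fold change, 2.60 (SE 0.34, limma adjusted p = 0.00114), and RSAD2 was at 2.41 (SE 0.45, adjusted p = 0.0118). MX2 (2.37, adjusted p = 0.00185), IFI44L (2.18, adjusted p = 0.021) and IFI44 (2.14, adjusted p = 0.00301) followed. By mean TPM the order differed, with IFI44L 8.26-fold higher, MX1 (not called) 7.82-fold, MX2 6.97-fold, CMPK2 6.92-fold and RSAD2 6.51-fold. XAF1 rose by 1.71 with the smallest adjusted p of the set (2.9e-04), and IFI35 by 1.18 (adjusted p = 0.00262). Of all tested genes, 1.78% were called higher at an adjusted p under 0.05. The median over the 10 genes was 1.93, against -0.02 over all tested genes.

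In all, 3 genes did not pass in the comparison of CX3CL1 with no treatment. MX1 was 1.52 higher (SE 0.47, adjusted p = 0.187), with groups that did not overlap, and was called with a pseudocount of 0.1 in place of 1 (2.62, adjusted p = 0.0177) and in a fit of only the libraries compared (adjusted p = 0.0279). BST2 was 1.01 higher (SE 0.36, adjusted p = 0.334) with overlapping groups. IFI27 differed by -0.03, with a 95% confidence interval from -0.47 to 0.42. Among the 10, 8 had every CX3CL1 library above every untreated one, as did 5.5% of tested genes. IFI44L lost its call without untreated replicate 2 (adjusted p = 0.112) or 3 (0.112) and without CX3CL1 replicate 1 (0.0652) or 3 (0.0988), and RSAD2 without untreated replicate 2 (0.0712) or CX3CL1 replicate 3 (0.0672). BST2 gained a call without CX3CL1 replicate 2 (1.43, adjusted p = 0.0459). Without any filter on low genes only CMPK2 and XAF1 stayed called, where 0.432% of the 23636 symbols then tested were called.

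IFN-γ against no treatment moved every one of the 10 genes past the threshold, 9 up and IFI27 down. Of all tested genes, 5.91% were called higher and 1.94% lower. IFI44L rose most, by 5.37 on the log2(TPM + 1) scale (SE 0.45, adjusted p = 7.7e-06), the 5th largest rise of 11878 genes. The Mx genes rose by 4.31 (MX1, adjusted p = 5.8e-05) and 4.06 (MX2, adjusted p = 7.6e-06). RSAD2 rose by 4.28 (adjusted p = 4.9e-05) and CMPK2 by 3.71 (adjusted p = 1.6e-05). IFI44 rose by 3.08, XAF1 by 2.72, BST2 by 2.25 and IFI35 by 1.77, with adjusted p from 2.9e-06 (XAF1) to 0.00165 (BST2). The median of the 10 was 3.39, against 0.03 over all tested genes. Groups did not overlap in any of them, whereas 20.6% of tested genes lay apart upward and 13.7% downward.

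The fall of IFI27 under IFN-γ was -1.56 (SE 0.20, 95% confidence interval -2.00 to -1.11, adjusted p = 2.9e-04), the 7th largest fall of the 11878. All 10 calls and directions held under each of the 13 alternatives, including each library left out in turn. For IFI27 the difference ran from -1.69 to -1.44 over these. With the replicate number as a block, which the data bore out for this pair of groups, the share of all tested genes called in either direction went from 7.85% to 16.2% and the 10 calls stayed. Quantile normalization changed the split over all tested genes from 702 higher and 230 lower to 556 and 536.

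**Figure D3:**
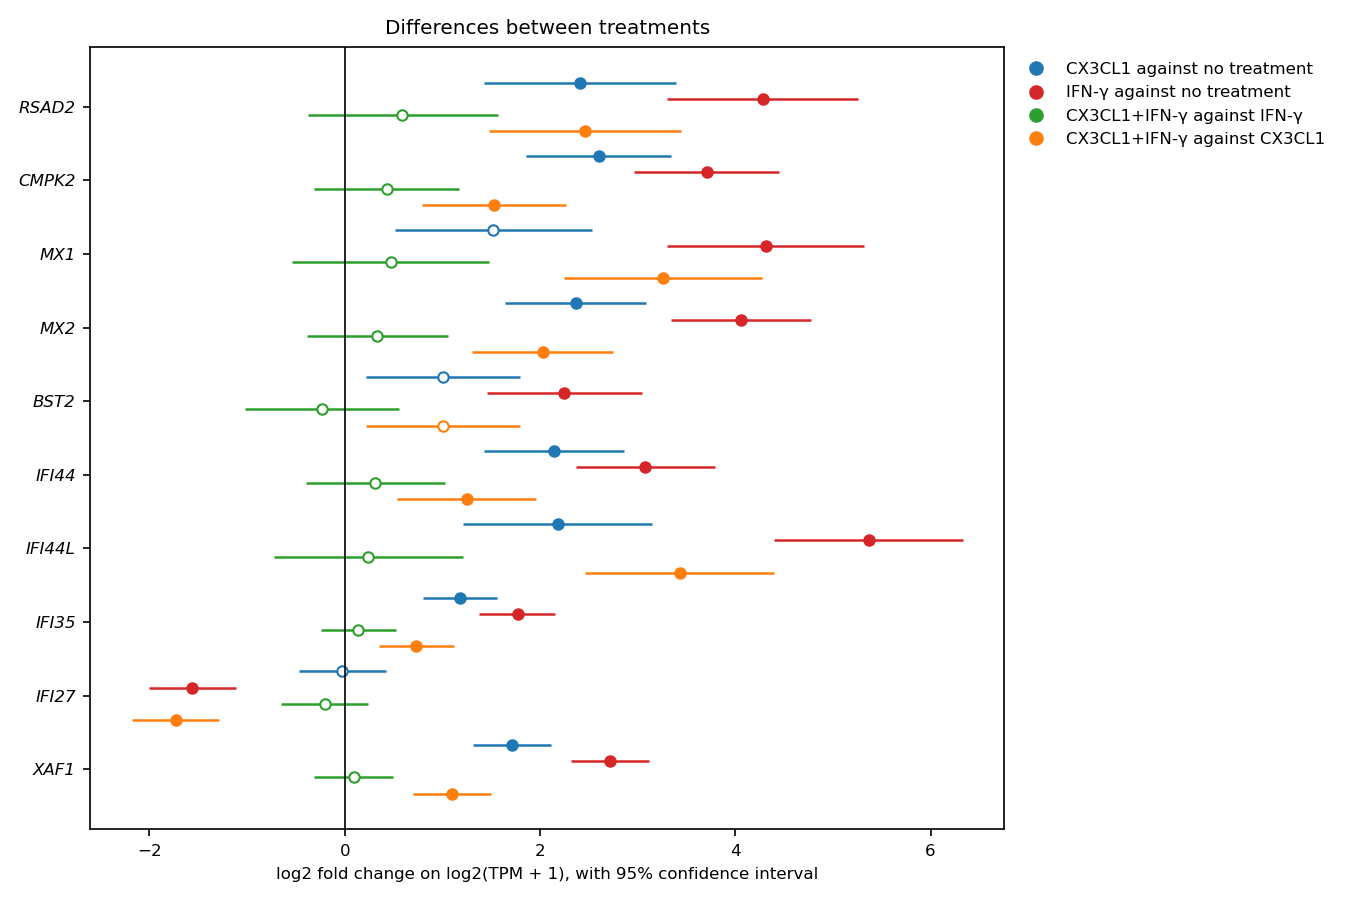
Log2 fold change of each gene on log2(TPM + 1) in 4 comparisons, with 95% confidence intervals. Filled points have an adjusted p under 0.05 over all tested genes. All 10 points of IFN-γ against no treatment are filled, and none of CX3CL1+IFN-γ against IFN-γ are.

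IFI27 has a neighbour of the same family, IFI27L2A, whose level went the other way. IFI27L2A was at 47.9, 17.8 and 30.1 TPM without treatment and at 55.1, 19.4 and 46.3 TPM with CX3CL1. Levels were 81.2, 72.7 and 63.8 TPM with IFN-γ and 55.8, 64.9 and 64.0 TPM with both. All its libraries with IFN-γ lay above all those without it. Against no treatment, IFI27L2A rose by 1.26 with IFN-γ (SE 0.35, limma adjusted p = 0.0483), close to the threshold, and its difference with CX3CL1 was 0.31 (adjusted p = 1). Between CX3CL1+IFN-γ and CX3CL1 it was not called (0.72, 95% confidence interval -0.05 to 1.49, adjusted p = 0.317). The ratio of IFI27 to IFI27L2A was 1.88 to 6.59 without treatment and 2.08 to 4.14 with CX3CL1. It was 0.407 to 0.555 with IFN-γ and 0.386 to 0.607 with both, so the more abundant gene of the pair changed with IFN-γ. A further relative, IFI27L2B, was below 1 TPM in every library and was called in none of the comparisons.

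The annotation of this pair bears on its values. In GENCODE vM21 the genes are 1927 bases apart, but in RefSeq (GRCm38.p6) IFI27L2A spans chr12:103433873-103443680 and covers all of IFI27 on the opposite strand. The gene annotation the authors used was not given in the sources used here, and neither was the strand setting of the counts. The sum of both genes was 127.3 to 138 TPM without treatment, 99.7 to 170.0 TPM with CX3CL1, 92.3 to 114 TPM with IFN-γ and 77.4 to 104.3 TPM with CX3CL1+IFN-γ. The part of a shift of reads between the pair was not tested.

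**Figure D4:**
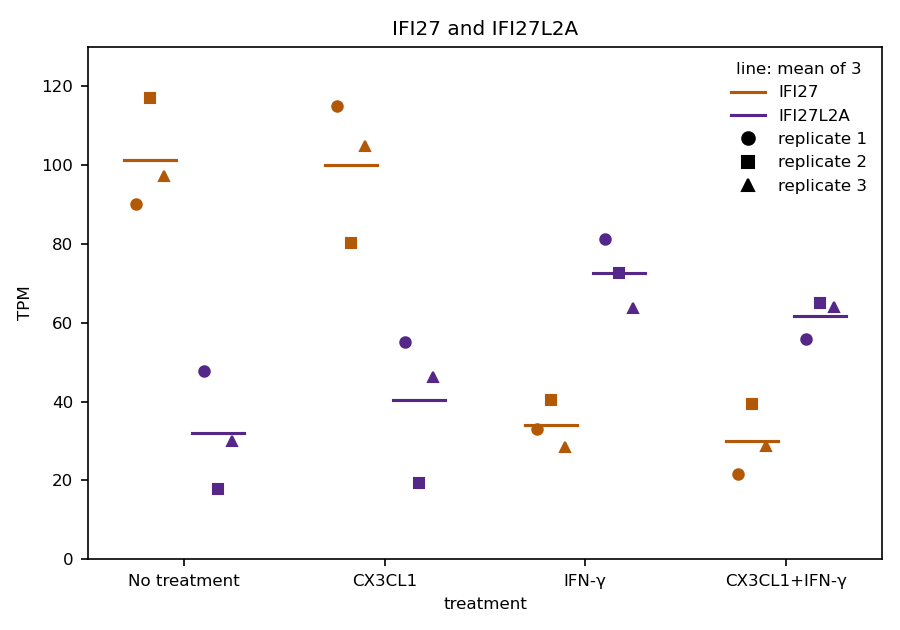
TPM of IFI27 and IFI27L2A by treatment, on a linear axis. Each point is 1 library and each line is the mean of 3. IFI27 is above IFI27L2A in the 6 libraries without IFN-γ and below it in the 6 libraries with IFN-γ.

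Binding partners of the effectors were also read. NMI, the partner of IFI35, was at 35.2, 22.8 and 31.1 TPM without treatment and at 52.1, 65.8 and 71.6 TPM with CX3CL1. Levels were 145, 143 and 182 TPM with IFN-γ and 175, 158 and 199 TPM with both. NMI rose by 1.07 with CX3CL1 (SE 0.17, limma adjusted p = 0.00327) and by 2.37 with IFN-γ (adjusted p = 3.7e-06), beside 1.18 and 1.77 for IFI35. XIAP, the partner of XAF1, ranged from 40.3 to 79.0 TPM over the 12 libraries and was called in no comparison. Its difference with IFN-γ was -0.37 (95% confidence interval -0.73 to -0.01, adjusted p = 0.211).

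CX3CL1+IFN-γ was compared with IFN-γ to ask what the chemokine added to the cytokine. None of the 10 genes passed the limma test in either direction, and none had an unadjusted p under 0.05. Of all tested genes, 0.345% were called higher and 0.0168% lower, and 4.35% had an unadjusted p under 0.05. RSAD2 was at the top of the 10 with a difference of 0.59 on the log2(TPM + 1) scale (SE 0.45, 95% confidence interval -0.38 to 1.57). MX1 (0.47), CMPK2 (0.43), MX2 (0.33), IFI44 (0.31), IFI44L (0.24), IFI35 (0.14) and XAF1 (0.09) were also above 0. IFI27 (-0.20) and BST2 (-0.23, 95% confidence interval -1.02 to 0.56) were below it. Adjusted p ran from 0.975 to 0.979, and the groups overlapped in all 10, whereas 8.54% of tested genes lay apart upward and 7.74% downward. The intervals include changes of up to 1.57 in RSAD2 and 1.48 in MX1, so a rise of that size was not shown to be absent.

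Libraries with the same replicate number deviated together in these groups, with correlations of 0.630, 0.635 and 0.649, so the values were also read pair by pair. Taken as the ratio of CX3CL1+IFN-γ to IFN-γ, RSAD2 stood at 1.52, 1.66 and 1.38 in replicates 1, 2 and 3. MX1 stood at 1.23, 1.51 and 1.49, and MX2 at 1.28, 1.24 and 1.28. CMPK2 stood at 1.38, 1.39 and 1.27, and IFI44 at 1.21, 1.35 and 1.18. In each of these genes the pairs were close to each other, although the libraries of a group differed widely. In all, 7 of the 10 genes were higher in 3 of 3 pairs, where 25% of all tested genes were, and IFI35 and XAF1 were so by at most 1.15-fold. BST2 was lower in all 3 pairs (25.6% of all tested genes), with ratios of 0.647, 0.973 and 0.976. IFI44L (0.882, 1.38 and 1.37) and IFI27 (0.653, 0.976 and 1.01) differed in direction between pairs. With the replicate number as a block, no gene of the 10 was called, the SE of RSAD2 went from 0.45 to 0.27 and its adjusted p was 0.607. The share of all tested genes called in either direction went from 0.362% to 0.8%.

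CX3CL1+IFN-γ against CX3CL1 asked what the cytokine added to the chemokine. In all, 8 of the 10 genes rose and IFI27 fell, where 3.76% of all tested genes were called higher and 0.935% lower. IFI44L rose by 3.43 on the log2(TPM + 1) scale (SE 0.45, limma adjusted p = 7.6e-04) and MX1 by 3.26 (adjusted p = 0.00151). RSAD2 rose by 2.46 (adjusted p = 0.00694), MX2 by 2.03 (adjusted p = 0.00369) and CMPK2 by 1.53 (adjusted p = 0.0223). IFI44 (1.25, adjusted p = 0.0497), XAF1 (1.10, adjusted p = 0.00391) and IFI35 (0.73, adjusted p = 0.0327) rose less. IFI27 differed by -1.73 (SE 0.20, adjusted p = 4.3e-04), the 4th largest fall of all tested genes. BST2 was 1.01 higher (adjusted p = 0.157), with groups that did not overlap. Groups lay apart in all 10, 9 upward (14% of tested genes) and IFI27 downward (5.48%). The median of the 10 was 1.39, against 0.04 over all tested genes.

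Calls of IFI44, IFI35 and CMPK2 depended on single libraries, whereas that of XAF1 held under all 13 alternatives. IFI44 lost its call without any 1 of CX3CL1 replicates 1, 2 and 3 or of CX3CL1+IFN-γ replicates 1, 2 and 3 (adjusted p 0.0728 to 0.18). IFI35 lost it without CX3CL1 replicate 1 (0.0924) or 2 (0.0818) and without CX3CL1+IFN-γ replicate 1 (0.0879) or 3 (0.144), and CMPK2 without CX3CL1 replicate 1 (0.0687) or 2 (0.0651) or CX3CL1+IFN-γ replicate 3 (0.107). Median-ratio scaling also ended the calls of IFI44 (adjusted p = 0.0579) and IFI35 (0.0739). With the replicate block, which the data bore out for this pair, the same 9 genes were called and the share of all tested genes called in either direction went from 4.7% to 11.5%. Over all tested genes 447 were higher and 111 lower, against 357 and 187 with median-ratio scaling and 349 and 228 with quantile normalization.

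Whether the effect of CX3CL1 differed with IFN-γ present was tested as an interaction on the log2(TPM + 1) scale. All 10 differences were below 0, so in the 9 genes other than IFI27 the difference between libraries with and without CX3CL1 was smaller, in log2 terms, when IFN-γ was present. None of the 10 had an adjusted p under 0.05, and of all tested genes 0% were called. CMPK2 was at -2.18 (SE 0.48, limma adjusted p = 0.228) and MX2 at -2.03 (SE 0.47, adjusted p = 0.281). XAF1 was at -1.62 (SE 0.26) with the smallest adjusted p of the 10, 0.0792, and IFI35 at -1.03 (adjusted p = 0.346). IFI44L (-1.93), IFI44 (-1.83), RSAD2 (-1.82) and BST2 (-1.25) had 95% confidence intervals below 0, whereas those of MX1 (-1.05) and IFI27 (-0.18) included it. With a pseudocount of 0.1 the difference of MX1 was -2.14 (SE 0.75, adjusted p = 1). Before adjustment, 8 of the 10 had a p under 0.05, as had 2.3% of all tested genes. The median of the 10 was -1.72, against 0.01 over all tested genes. The rise with CX3CL1 alone enters this difference with a minus sign, and the genes were chosen with earlier results known. This count and median are therefore descriptions of a chosen set. Without untreated replicate 1, IFI44 (-2.30, adjusted p = 0.0233) and XAF1 (-1.77, adjusted p = 0.0352) were called, as were 0.0926% of all tested genes.

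**Figure D5:**
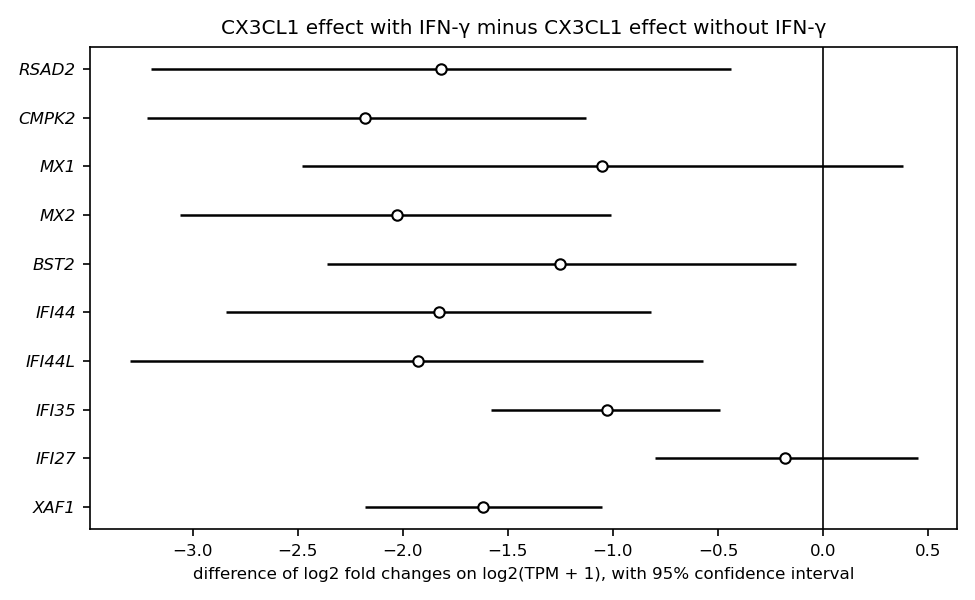
Difference between the CX3CL1 effect with IFN-γ and the CX3CL1 effect without it, on log2(TPM + 1), for each gene, with 95% confidence intervals. Open points have an adjusted p of at least 0.05 over all tested genes. The intervals of 8 genes lie below 0, and those of MX1 and IFI27 include it.

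Other genes of the pathway were read from 2 lists, also chosen with earlier results of these data known. Their counts and medians are descriptions of chosen sets. Of 35 further antiviral genes, 34 were tested, and 26 were called higher with CX3CL1 (1.78% of all tested genes), 31 with IFN-γ (5.91%) and 24 with CX3CL1+IFN-γ against CX3CL1 (3.76%). No gene of this list was called lower in any comparison, and none was called between CX3CL1+IFN-γ and IFN-γ, where 1 had an unadjusted p under 0.05 (4.35% of all tested genes). With CX3CL1 the largest called rises were IFIT3 (2.61), IFIT3B (2.51) and ZBP1 (2.50), the IFIT proteins being RNA-binding blockers of viral translation and ZBP1 a sensor of Z-form nucleic acids. ZBP1 (5.52), IFIT3 (5) and IFIT3B (4.64) also led with IFN-γ, and ZBP1 (3.23), IFIT3 (2.78) and IFIT3B (2.56) led in CX3CL1+IFN-γ against CX3CL1. IFIT3 and IFIT3B are near-identical copies, so the split of reads between them is uncertain. The median of the list was 1.49 with CX3CL1, beside 1.93 for the 10 effectors, and 2.27 with IFN-γ, beside 3.39. In the interaction none was called and 28 had an unadjusted p under 0.05 (2.3% of all tested genes), with a median of -1.34.

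Of 24 genes of interferon signalling, 21 were tested. With CX3CL1, 4 were called higher (1.78% of all tested genes) and none lower. They included USP18 (2.42), which restrains signalling from the type I receptor, and STAT2 (1.42). With IFN-γ 9 were called higher (5.91% of all tested genes) and none lower, among them IRF7 (3.84), USP18 (3.20) and STAT2 (2.64). Against CX3CL1 alone, CX3CL1+IFN-γ had 6 called higher (3.76%), led by IRF7 (2.33), IRF1 (1.57) and IRF5 (1.55). Between CX3CL1+IFN-γ and IFN-γ none was called and 2 had an unadjusted p under 0.05 (4.35% of all tested genes), and in the interaction none was called and 6 had one (2.3%).

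The receptor genes IFNAR1 and IFNGR1 were expressed, and the interferon transcripts read here (IFNB1, IFNG, IFNL2 and IFNL3) were near or at 0. IFNAR1 ranged from 13.8 to 21.95 TPM and IFNGR1 from 22.6 to 28.6 TPM over the 12 libraries. The other receptor chains, IFNAR2 and IFNGR2, were less steady, though called in no comparison. IFNAR2 was at 10.9 to 16.5 TPM without treatment and 14.8 to 20.55 TPM with CX3CL1. With IFN-γ it was at 17.4 to 27.8 TPM, and with both at 23.95 to 37.65 TPM. IFNGR2 was at 26.5 to 39.3 TPM without treatment and 42.8 to 55.9 TPM with CX3CL1. With IFN-γ it was at 39.75 to 49.4 TPM, and with both at 40.0 to 53.6 TPM. The receptor and interferon genes of this paragraph were named after their values were seen. IFNB1 was at 0.106, 0.0720 and 0 TPM without treatment and at 0.199, 0 and 0.506 TPM with CX3CL1. Levels were 0.568, 0.941 and 0.930 TPM with IFN-γ and 0.416, 0.373 and 0.929 TPM with both, below 1 TPM in every library. At these low levels IFNB1 was called higher with IFN-γ than without treatment (0.77, limma adjusted p = 0.0116), and in no other comparison. IFNG was listed at 0 in 11 libraries, and IFNL2 and IFNL3 were listed at 0 in all 12.

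For each effector, genes of most similar pattern were taken from those with a mean of at least 1 TPM. Likeness was the root mean square difference of log2(TPM + 1) over the 12 libraries, each gene centred on its untreated mean, and it is a description over libraries that share their treatments. XAF1 was near PARP12 (0.14) and H2-Q4 (0.15). IFI35 was nearest to APOL9A (0.12), TRIM34B (0.13) and TRIM14 (0.16). CMPK2 was nearest to IFIT1 (0.27) and MX2 (0.36), and RSAD2 to SLFN2 (0.26), GBP7 (0.28) and IFIT3B (0.34). IFI44 was nearest to PHF11D (0.25), BST2 to UBE2L6 (0.31), IFI44L to IFIT3 (0.41) and MX1 to GM4951 (0.45). IFI27, as the gene that fell, was nearest to CCL9 (0.31), CES1G (0.33) and NDUFA4 (0.37).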

How the data were processed

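RNA of CT26 cells was isolated with an RNeasy kit, and strand-specific mRNA libraries were made with a Kapa mRNA HyperPrep kit. The authors aligned reads to mm10 and counted genes with STAR 2.7.3a in the VIPER pipeline, and tested counts with DESeq2 1.22.1. The deposited values are TPM per gene symbol, scaled by the authors to 1000000 in each library; the conversion, the annotation and the strand setting were not given in the sources used here. TPM carry no depth, so the read depth is unknown, no counting error was computed and no count test was run. Precision rests on the 3 replicates of each group, and an exact permutation test of 3 against 3 cannot go below p = 0.1.

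Tests were made with limma 3.58.1 in R 4.3.3 (linear fit and empirical Bayes with a trend) for all 12 libraries together, on log2(TPM + 1) of the 11878 symbols whose mean was 0.2 TPM or more, two-sided, with Benjamini-Hochberg adjustment over all of them. A gene was called at an adjusted p under 0.05. Fold changes on this scale understate those of low genes. The script was tested on simulated data. The named genes are the 10 effectors, their relatives and partners, and in each list the 3 called genes with the largest change; 1 gene that these rules name is not reported here. The genes and lists were chosen with earlier results of these data known. Same-numbered libraries were checked for shared deviations from their group means. All correlations were over 0.1 for IFN-γ and no treatment (0.429, 0.460 and 0.220), CX3CL1+IFN-γ and IFN-γ (0.630, 0.635 and 0.649) and CX3CL1+IFN-γ and CX3CL1 (0.351, 0.353 and 0.428), so the block was taken as pairing there. This was not so for CX3CL1 and no treatment (0.387, 0.005 and 0.301) or for CX3CL1+IFN-γ and no treatment (0.312, 0.447 and 0.032). The block was fitted as 1 term over all 12 libraries, so every blocked result also draws on those groups. The comparisons share groups and are not independent. Settings changed one by one were the pseudocount (0.1), the filter (none, or a mean of 1 TPM), the scaling (median-ratio or quantile normalization), a fit of only the libraries compared, the replicate block and each library left out. Promoters and positions came from RefSeq (GRCm38.p6) and GENCODE vM21, of the same assembly as mm10.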

Additional observations from a re-analysis of the deposited data

How the results depend on the processing

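Of 700 member values recomputed under alternatives, 649 kept their direction and their side of the threshold, 33 lost a call, 10 gained one and 8 changed sign. Without a filter, 23636 symbols were tested in place of 11878, and the number of effectors called went from 7 to 2 for CX3CL1 against no treatment and from 9 to 5 for CX3CL1+IFN-γ against CX3CL1 (RSAD2, CMPK2, IFI44 and IFI35 lost). The share of all tested genes called in either direction went from 1.95% to 0.432% and from 4.7% to 1.36%. In CX3CL1+IFN-γ against CX3CL1, a pseudocount of 0.1 also ended the call of IFI44 (limma adjusted p = 0.0504). Quantile normalization (0.0556) or fitting only the compared libraries (0.0709) ended that of IFI35. In the interaction, 4 effectors (CMPK2, MX2, IFI35 and XAF1) were called with the replicate block, as were 0.438% of all tested genes. Not all groups of the block passed the check of pairing. With 1 library left out 0 to 2 effectors were called and at most 0.0926% of all tested genes, and the cause was not tested. The 8 sign changes were all of values near 0 that were never called (range with 1 library left out in parentheses). For CX3CL1 against no treatment IFI27 went to 0.00 with median-ratio scaling, 0.08 without untreated replicate 2 and 0.12 without CX3CL1 replicate 2 (-0.13 to 0.12). For CX3CL1+IFN-γ against IFN-γ, MX2 went to -0.01 without IFN-γ replicate 1 (-0.01 to 0.67), IFI27 to 0.00 without CX3CL1+IFN-γ replicate 1 (-0.42 to 0.00), and IFI44L to -0.19 (-0.19 to 0.59) and XAF1 to -0.04 (-0.04 to 0.20) without CX3CL1+IFN-γ replicate 3. The interaction of IFI27 went to 0.03 without CX3CL1+IFN-γ replicate 1 (-0.39 to 0.03).

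Counts over all tested genes moved more. They went from 232 to between 102 (no filter) and 455 (block) for CX3CL1 against no treatment, and from 932 to between 530 (without untreated replicate 3) and 1929 (block) for IFN-γ. They went from 43 to between 16 (without CX3CL1+IFN-γ replicate 3) and 95 (block) for CX3CL1+IFN-γ against IFN-γ, and from 558 to between 270 (without CX3CL1+IFN-γ replicate 3) and 1369 (block) against CX3CL1. For the interaction they went from 0 to at most 52, with the block. Same-numbered libraries of CX3CL1 and no treatment shared only a number by the check of pairing; with the replicate block MX1 was also called there (1.52, limma adjusted p = 0.0165), and 2 of 3 libraries correlated best with their own number. With no read depth, low values such as those of MX1 and IFI44L in untreated cells carry an unknown counting error.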
